A study of Homo sapiens with 2 samples.

Results

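The cytosolic ribosomal protein genes were examined in A549 cells, an established human lung cancer line, after silencing of the long noncoding RNA MILIP. Members were the protein-coding genes whose symbol is RPL or RPS followed by digits, alone or with an A or X, together with RPLP0, RPLP1, RPLP2 and RPSA. Pseudogenes and paralogs with an L suffix such as RPS27L were left out, and the rule itself uses no measured value. It was set with earlier results of these data known. The rule found 77 of the 60711 genes listed, 46 of the large and 31 of the small ribosomal subunit.

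RNA was sequenced from 1 library of cells given control siRNA and from 1 library of cells given MILIP siRNA, both collected 48 h after transfection. Both cultures were A549 cells in DMEM with fetal bovine serum and antibiotics, seeded a day before, and both received siRNA with the same lipid reagent. The labels call the siRNA MILIP siRNA without giving its sequence or the number of duplexes. The paper names a single MILIP siRNA for its RNA-seq. With 1 library per condition there was no replicate, so no p-value and no SD could be given for any difference. Single genes carry 95% Clopper-Pearson limits, computed on log2 ratios without pseudocount, and these cover counting error only.

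The eukaryotic ribosome is built from a large and a small subunit, each made of ribosomal RNA and of many proteins that are mostly present in equal number. The mRNAs of these proteins are among the most abundant of a growing cell, and most begin with a C followed by a run of pyrimidines, the terminal oligopyrimidine (TOP) motif, through which mTORC1 and LARP1 control their translation. MYC is known to raise the transcription of ribosomal protein genes, and free RPL5 and RPL11 are known to bind MDM2 and so to stabilize p53.

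Since the TOP motif is the sequence feature the family is known for, it was looked up at the transcription starts first. Promoter sequences from RefSeq (GRCh38.p14), running from 250 bases before to 50 bases after a start, were at hand for 62 of the 77 members. A start was counted as TOP when its first base was C and at least 5 pyrimidines followed one another from there. Counting a gene by any of its promoters, such a start was found for 46 of 62 member genes (74.2%). This compares with 5.14% of all 27305 genes with a promoter and 7.04% of the other genes tested here. By promoter, it was found for 59.7% of the 77 promoters of members, against 4.07% of all 35116. The lines below show 30 bases around a start, 15 bases on each side, 5′ to 3′ on the coding strand. They cover the 4 members with the lowest log2 ratios and 5 of the 6 with the highest. Where a member had several promoters, the start with the longest pyrimidine run was taken. The pyrimidine run that begins at the start is in capitals.
RPL18: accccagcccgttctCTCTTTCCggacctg
RPL36A: tttgcctcgcggtttCTTTCTTTCCgcgcc
RPL36: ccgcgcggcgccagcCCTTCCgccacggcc
RPS23: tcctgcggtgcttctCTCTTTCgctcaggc
RPLP0: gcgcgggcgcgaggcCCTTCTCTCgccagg
RPS9: gtggcgcttccgcgcCTCTTTCTCagtgac
RPL13: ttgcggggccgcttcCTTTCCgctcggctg
RPL11: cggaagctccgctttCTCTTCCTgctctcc
RPL28: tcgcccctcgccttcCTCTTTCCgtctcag

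These windows lie at chr19:48619164-48619193 (minus strand) for RPL18, chrX:101390996-101391025 (plus) for RPL36A, chr19:5690280-5690309 (plus) for RPL36 and chr5:82278340-82278369 (minus) for RPS23. On the other side of the ranking they lie at chr12:120201097-120201126 (minus) for RPLP0, chr19:54200843-54200872 (plus) for RPS9, chr16:89560667-89560696 (plus) for RPL13, chr1:23691791-23691820 (plus) for RPL11 and chr19:55385917-55385946 (plus) for RPL28. RPL18 and RPL28, the lowest and the highest member, begin with the same run of 8 pyrimidines. A match describes these letters and is not a measured site.

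The targeted RNA was looked at first as a check of the labels. MILIP had a scaled read count of 29.5 with control siRNA and of 3.22 with MILIP siRNA, from 588 and 64 reads, a log2 ratio of −2.85. The library labelled MILIP siRNA thus held less of the target. MDM2, a ubiquitin ligase bound by several free ribosomal proteins, was listed at 120 and 132 (log2 ratio 0.14). MYC was listed at 178 and 112 (−0.67, limits −0.75 to −0.60). Of the epithelial and A549 markers, KRT8, KRT18, KRT19, CDH1, AKR1C1, AKR1B10 and NQO1 had values between 30.5 and 3119. EPCAM was low at 2.65 and 5.93, from 53 and 118 reads. All 5 epithelial markers had a log2 ratio above 0, and KRT19 (0.96), EPCAM (0.92) and CDH1 (0.72) were past 1.5-fold. AKR1C1, AKR1B10 and NQO1 were above 0 and below 1.5-fold. Over all genes tested, 47.8% were above 0 and 11.1% were at least 1.5-fold higher. The part of these markers in the ratios of the members was not tested. Of the alveolar markers, SFTPC and SFTPB were listed at 0 and NAPSA at 1.05 and 1.26, the endothelial markers PECAM1 and CDH5 were listed at 0, and the leukocyte markers PTPRC and CD3E had no value. The listed values stand for 20300800 and 19460956 reads, with 1 step of the value scale taken as 1 read, and genes below 20 reads appear at 0.

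All 77 members passed the filter on low values (mean of both libraries 1 or more), as did 13521 genes in all. The family as a whole lay close to 0. Its median log2 ratio, MILIP siRNA over control siRNA with a pseudocount of 1, was −0.07 (interquartile range −0.13 to 0.02), beside −0.03 (−0.36 to 0.29) over all genes tested. None of the 77 members was at least 1.5-fold higher, where 11.1% of all genes tested were, and 1 member, RPL18, was at least 1.5-fold lower, where 13.8% were. A log2 ratio above 0 was found for 22 of the 77 members, against 47.8% of all genes tested. In RNA from whole cultures, fewer cells of a type and less RNA per cell cannot be told apart.

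What set the family apart in description was how closely its members kept together. The interquartile range of the 77 log2 ratios spanned 0.156, against 0.642 for all genes tested. Other genes of high abundance spread more widely, since the 2112 other genes that reached a mean of 100 spanned 0.609 and the 69 members at that level spanned 0.166. The mitochondrial ribosomal protein genes, which build the separate ribosome of mitochondria, spanned 0.405 around a median of −0.15 (77 of 78 tested). Of these 77, 1 was at least 1.5-fold higher and 8 were lower, where 11.1% and 13.8% of all genes tested were. Of the members, 65 lay within 0.2 of 0 and 73 within 0.35. Spread over genes is not replicate error, and none of these widths was tested.

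**Figure D1:**
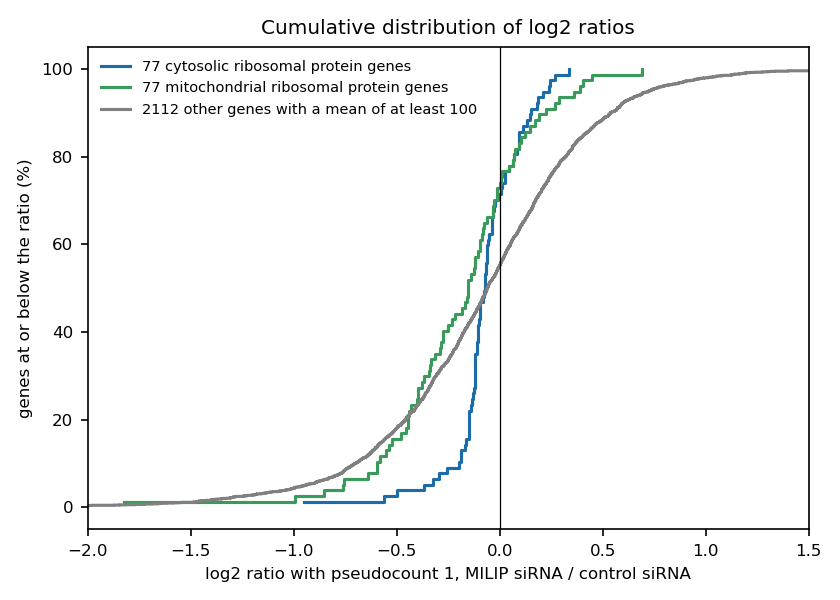
Cumulative share of genes (vertical axis, percent) at or below each log2 ratio with pseudocount 1 (horizontal axis) for the 77 cytosolic ribosomal protein genes, 77 mitochondrial ribosomal protein genes and the 2112 other genes that reached a mean of 100. The line of the cytosolic genes is the steepest, with an interquartile range 0.156 wide against 0.405 and 0.609.

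The counting limits of single members were narrow, with a median half-width of 0.033. They lay wholly below 0 for 49 members and wholly above 0 for 18, and included 0 for 10. These counts set each member against 0, and the share over all genes tested was not counted. Limits are narrower where reads are many, so the counts are not read as a trait of the family. Members next to each other in the ranking often had overlapping limits, as did RPL5 (−0.11 to −0.04) and RPS27A (−0.11 to −0.05), and variation between cultures could not be measured.

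The direction of the family's total depended on the scale. Summed over the members, scaled read counts were 66772 for control siRNA and 65996 for MILIP siRNA. As a share of all listed reads they went the other way, from 6.57% (exact 95% binomial limits 6.56% to 6.58%) to 6.74% (6.73% to 6.76%). The values of all listed genes summed to 1016809 and 978499. With libraries scaled to the same total of listed reads, the members' median was −0.018, beside 0.024 over all genes tested. At that scaling 30 of 77 members lay above 0, against 51.9% of all genes tested. The members' median minus that of all genes was −0.042, and −0.047 at the deposited scaling. The scale thus moved all genes together, and no direction of the family is read from these libraries.

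Both subunits lay at the family's median. Large subunit genes had a median of −0.07, with 12 of 46 above 0, and held 3.94% of listed reads with control siRNA and 4.06% with MILIP siRNA. Small subunit genes had a median of −0.07, with 10 of 31 above 0, and held 2.63% and 2.69%. Among the 100 most abundant genes, members numbered 26 with control siRNA and 29 with MILIP siRNA.

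**Figure D2:**
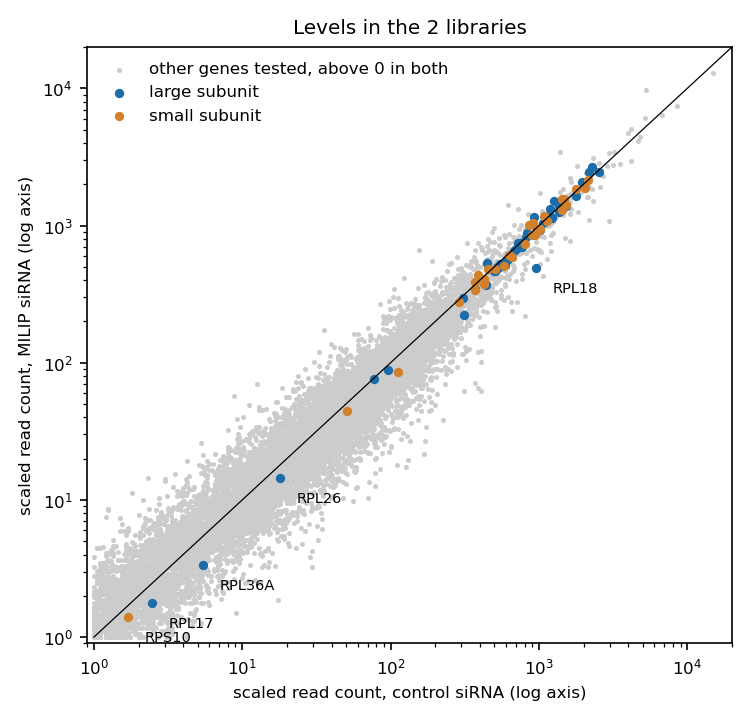
Scaled read count of each gene with control siRNA (horizontal log axis) and with MILIP siRNA (vertical log axis), for members of the large and small subunit and, in grey, other genes tested, 1 point per gene, with the line of equal values. Members follow the line from RPL4, at 2522 and 2456, to RPS10 at 1.70 and 1.41, and RPL18 lies below it at 954 and 493.

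The member farthest from the others was RPL18, a protein of the large subunit (ENSG00000063177, chr19:48615328-48619536, minus strand, 7 exons). Its scaled read counts were 954 (control siRNA) and 493 (MILIP siRNA), from 19040 and 9812 reads. The log2 ratio was −0.95 (limits −0.99 to −0.92), a 1.93-fold lower level. The next member stood 0.39 higher on the log2 scale, and over all genes tested 5.27% had a lower ratio. Of its 1004-base transcript, 26.4% overlaps exons of other genes, mainly AC022154.1 on the same strand, which is listed at 0 in both libraries. SPHK2 on the opposite strand was listed at 18.6 and 24.2. Without RPL18 the family held 6.47% and 6.69% of listed reads.

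Below the rest also lay RPL36, a small protein of the large subunit on the same chromosome, listed at 313 and 221. Its log2 ratio was −0.50 (limits −0.56 to −0.45) and its transcript overlaps no other gene. RPS23, a protein of the small subunit at the decoding centre, was listed at 112 and 86.2, with a log2 ratio of −0.37 (−0.47 to −0.28). Both were lower with MILIP siRNA by more than counting error and by less than 1.5-fold.

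The other 3 of the 6 lowest members had few reads. RPL36A, a large subunit protein near the exit site for transfer RNA, was listed at 5.46 and 3.37, from 109 and 67 reads (log2 ratio −0.56, limits −1.16 to −0.24), and passed 1.5-fold without the pseudocount, at −0.70. RPL17, at the mouth of the exit tunnel for the new protein chain, was listed at 2.45 and 1.76, from 49 and 35 reads (−0.32, limits −1.15 to 0.17). RPL26, which lies near the same tunnel exit, was listed at 17.98 and 14.48 (−0.29, limits −0.54 to −0.08). The limits of RPL17 include 0.

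At the upper end stood RPL28, a large subunit protein (ENSG00000108107, chr19:55385345-55403250, plus strand). Its scaled read counts were 921 (control siRNA) and 1162 (MILIP siRNA). Its log2 ratio was 0.33 (limits 0.31 to 0.36), a 1.26-fold higher level and still below the 1.5-fold line. RPL11 came next and is given with its group, as is RPLP0. RPL13, another large subunit protein, was listed at 1269 and 1504 (0.24), and the small subunit protein RPS9 at 858 and 1014 (0.24). Of the 10 highest members, 6 belonged to the large and 4 to the small subunit.

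**Figure D3:**
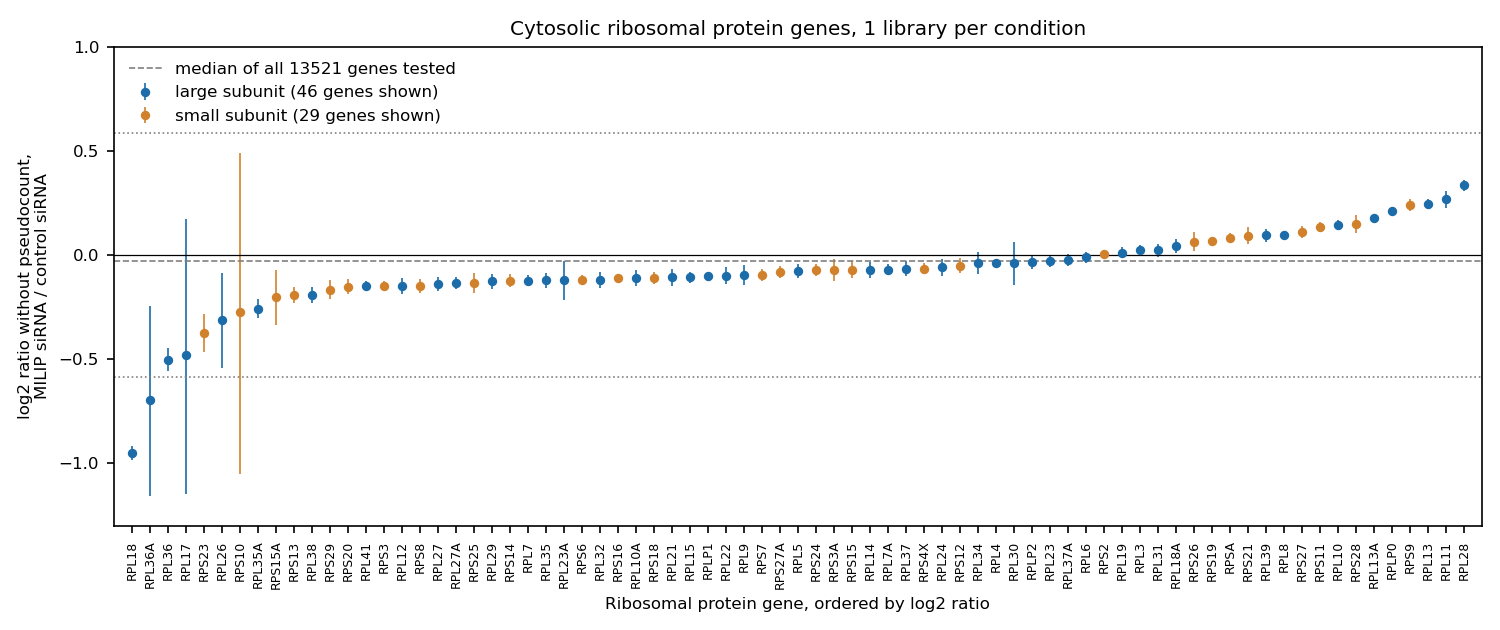
Log2 ratio without pseudocount (vertical axis) of 75 members in rising order (horizontal axis), large subunit in blue and small subunit in orange. Bars are 95% Clopper-Pearson limits for counting error, dotted lines mark 1.5-fold and the dashed line is the median of all genes tested. RPL18 lies alone at −0.95 with short bars, while the long bars of RPL36A, RPL17 and RPS10 come from 28 to 109 reads.

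The P stalk of the large subunit, which recruits elongation factors, is formed by RPLP0 with RPLP1 and RPLP2. RPLP0, its anchor, was listed at 2286 and 2648 (log2 ratio 0.21, limits 0.19 to 0.23). RPLP1 was listed at 1763 and 1644 (−0.10) and RPLP2 at 780 and 762 (−0.03). The limits of RPLP0 lie apart from those of the other two, and RPLP2 changed sign when libraries were scaled to the same total of listed reads.

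Of the 6 members linked to MDM2 or p53, 5 lay close to the family's median or below it. RPL5, which enters the large subunit with RPL11 as a particle with ribosomal RNA, was listed at 705 and 670 (log2 ratio −0.07, limits −0.11 to −0.04). RPL11, its partner in that particle, was listed at 446 and 537 (0.27, limits 0.23 to 0.31). The limits of the pair do not overlap.

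RPL23, which can bind MDM2, was listed at 1064 and 1043 (−0.03). RPS7, a small subunit protein that can also bind MDM2, was listed at 996 and 932 (−0.09), and RPS27A, made as a fusion with ubiquitin, at 899 and 850 (−0.08). RPL11 was the only 1 of these 6 above 0 at the deposited scaling, RPL23 was also above 0 with libraries scaled by the median of ratios or to the same total, and the median of the 6 was −0.08. A list of 18 members in which changes are known to cause Diamond-Blackfan anaemia, an inherited failure of red cell production, had a median of −0.08. The list may not hold all such members. Of the 18, 6 lay above 0, against 47.8% of all genes tested. RPL18 was the 1 at least 1.5-fold lower and none was higher, where 13.8% and 11.1% of all genes tested were.

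Levels per length differed far more between members than between libraries. The scaled read count per kb of transcript had a median of 1001 with control siRNA and of 1005 with MILIP siRNA. The highest members were the small subunit proteins RPS16 with 3626 and 3357 and RPS19 with 3363 and 3526, the very short large subunit protein RPL41 with 3254 and 2933, and the small subunit protein RPS27 with 3026 and 3268. The lowest were RPS10, of the small subunit, with 2.90 and 2.39, RPL17 with 3.67 and 2.63, RPL36A with 12.7 and 7.85, and RPS23 with 32.5 and 25.1. RPS23 has an annotated transcript of 3437 bases for a coding length of 429, which lowers its value per kb.

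The members with the fewest reads were those whose exons are shared with another annotated gene. On the same strand, RPL17 shares 91.0% of its transcript with the read-through gene RPL17-C18orf32, RPS10 84.0% with RPS10-NUDT3, RPL36A 77.6% with RPL36A-HNRNPH2 and RPL26 65.3% with AC135178.2. The 3 read-through genes have no value in the table, and AC135178.2 is listed at 0. These 4 are among 5 members that share at least 50% of their transcript on the same strand, and the level of the other was not low. Of the 8 members with a mean below 100, 7 overlap another gene over at least 10% of their transcript on either strand, as do 16 of all 77. Counters such as HTSeq leave out reads that fit more than 1 gene in their usual setting, and whether this set the low values was not tested.

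The log2 ratios of overlapped members lay lower. The 16 members with at least 10% overlap had a median of −0.12, with 2 above 0. The 61 others had a median of −0.07, with 20 above 0. All 8 members with a mean below 100 had a ratio below 0, with a median of −0.25. Over the 77 members the log2 ratio had a Spearman correlation of 0.45 with abundance, where all genes tested had −0.10. These genes share the same 2 libraries, and the values are given as a description.

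Pseudogenes are the other place where reads of this family can go astray, since all 77 members have pseudogenes in the annotation. Of 1587 annotated pseudogenes of members, 378 had a value in the table and 24 of these held reads, in all 0.0270% of listed reads with control siRNA and 0.0291% with MILIP siRNA. The copy with the most reads was ENSG00000237550, a copy of RPL9, with 3246 and 3207 reads. RPL9 itself had 7352 and 6857 reads. RPS2P5 followed with 924 and 1017, RPL23AP82 with 237 and 314, RPL32P3 with 172 and 148, and RPL7AP75 with 114 and 185. Reads from near-identical copies may be split between gene and pseudogene, so the levels of RPL9 and the other parents carry that uncertainty. Adding the pseudogene reads to their parent left the family's median at −0.07. Only 18 of the 77 members had such reads, so this median cannot show how single parents are affected. RPS10, with 34 and 28 reads beside 45 and 36 in its pseudogenes, went from −0.17 to −0.23.

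Position and base composition were set beside the ratios. Chromosome 19 carries 12 of the 77 members, 15.6% of the family against 6.85% of all genes tested. Their median log2 ratio was 0.10, with 8 of 12 above 0, while the 65 other members had a median of −0.09, with 14 above 0. Of the 10 highest members 6 lie on this chromosome, and so do RPL18 and RPL36 among the 3 lowest. All genes tested on chromosome 19 had a median of 0.14, with 572 of 926 above 0. Genes tested elsewhere had a median of −0.04, with 5897 of 12595 above 0. The differences were not tested.

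Transcripts with more G and C had higher ratios across all genes tested, with a median of 0.11 above 50% GC content and of −0.15 at or below it. In the members these medians were −0.06 (37 genes) and −0.09 (40 genes). The Spearman correlation of log2 ratio with GC content was 0.23 over the members (Pearson 0.09) and 0.29 over all genes tested (Pearson 0.27). With the GC trend taken out, the members' median was −0.012 and 36 of 77 lay above 0. At that setting 49.99% of all genes tested with a GC content lay above 0, a share fixed in advance by taking out medians of bins of genes. The part of base composition in the ratio of any single member was not tested.

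The TOP start shown above did not separate the members. The 46 members with such a start had a median log2 ratio of −0.09 and the 16 lacking it had −0.08. Among other genes tested, the 724 with a TOP start had a median of 0.03 and the 9561 without had −0.03. The E-box CACGTG, the sequence MYC is known to bind, read the same on both strands, occurred in 5.19% of the members' promoters and in 7.26% of all promoters. By gene, it was found for 6.45% of the members and 12.6% of the other genes tested. The 4 member genes with an E-box, among them RPS28 and RPL13A, had a median of 0.11. The core CCGGAAG of ETS factor sites, searched on both strands, occurred in 33.8% of the members' promoters and in 10.3% of all. By gene, it was found for 35.5% of the members and 22.3% of the other genes tested. Its reverse complement, CTTCCGG, can overlap a TOP run. The 22 member genes with this core had a median of −0.08 and the 40 without had −0.09.

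Of the ribosomal proteins outside the naming pattern, 1 lay far from the members. RACK1, a scaffold protein on the head of the small subunit, had scaled read counts of 1207 (control) and 651 (MILIP siRNA), with a log2 ratio of −0.89 (limits −0.92 to −0.86). FAU, which encodes RPS30 fused to a ubiquitin-like protein, was listed at 158 and 173 (0.13). FAU stayed with the members, and RACK1 lay near RPL18.

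The paralogs with an L suffix spread more widely than the members. RPL26L1, a close relative of RPL26, was listed at 23.9 and 79.5, a log2 ratio of 1.69 (limits 1.59 to 1.89). It was the only paralog past 1.5-fold among the 6 tested. RPS27L, a relative of RPS27 known as a p53 target, was listed at 288 and 367 (0.35, limits 0.30 to 0.40).

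Of the other paralogs, RPL36AL was listed at 229 and 240 (0.07) and RPL39L at 17.4 and 18.2 (0.06). RPL22L1 was listed at 51.0 and 39.7 (−0.36, limits −0.50 to −0.23). RPL7L1, a factor of ribosome assembly, was listed at 214 and 150 (−0.51, limits −0.58 to −0.45). RPL3L was listed at 0 and RPL10L had no value.

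Elongation factors and other genes with TOP mRNAs had a median between that of the family (−0.07) and that of all genes tested (−0.03). They spread more widely than the family. Of 17 listed, 16 were tested, with a median of −0.04 and 6 above 0, against 47.8% of all genes tested. EIF3F, a subunit of an initiation factor, was the 1 at least 1.5-fold higher, at 116 and 203 (log2 ratio 0.80). None was at least 1.5-fold lower, and over all genes tested 11.1% were higher and 13.8% lower. TPT1 followed EIF3F at 593 and 819 (0.47). The lowest were NPM1, a nucleolar chaperone, at 1845 and 1255 (−0.56), and BTF3 at 633 and 443 (−0.52).

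The regulators of TOP mRNA translation, mTORC1 and its partners, were spread on both sides. All 16 were tested, with a median of −0.09, none at least 1.5-fold higher (11.1% of all genes tested) and 4 lower (13.8%). EIF4EBP2, a repressor of the cap-binding protein, was the lowest at 137 and 36.2 (log2 ratio −1.89), and the kinase MTOR followed at 78.6 and 45.7 (−0.77). The kinases AKT1, at 84.8 and 125 (0.55), and RPS6KB2, at 27.1 and 39.9 (0.54), were the highest. LARP1, which binds the TOP motif, was listed at 474 and 436 (−0.12).

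The list that lay lowest held the chaperones and modifying enzymes of ribosomal proteins. All 19 genes were tested, with a median of −0.48 against −0.07 for the proteins they serve, 4 above 0, none at least 1.5-fold higher and 6 lower, where 11.1% and 13.8% of all genes tested were. USP10, a ubiquitin protease that acts on small subunit proteins, was listed at 149 and 74.0 (log2 ratio −0.996), and OGFOD1, which hydroxylates RPS23, at 55.6 and 30.3 (−0.86). GRWD1, a chaperone of RPL3, was listed at 180 and 105 (−0.78). The highest were TSR2, the chaperone of RPS26, at 55.3 and 65.7 (0.24), and RNF10, a ubiquitin ligase for small subunit proteins, at 163 and 185 (0.18). LARP1 and GRWD1, like RPL4, RPL9, RPL13A and RPS28 among the members, were named after their values were seen.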

How the data were processed

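RNA-seq of A549 cells compared 1 library of control siRNA with 1 of MILIP siRNA, grouped by the labels. The submitters' processing notes name TopHat2 2.0.12, HTSeq 0.6.1 and hg38, without settings or strand use. The deposited signal is 1 scaled read count per gene and library, which the authors had normalized by a method not given in the sources used here. Values above 0 are whole multiples of a step of 0.0501 (control) and 0.0503 (MILIP siRNA), taken as 1 read. The authors' columns of log2 fold change, p-value, q-value and call of change were not used.

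Log2 ratios used a pseudocount of 1 over the 13521 of 27856 genes with values that had a mean of at least 1, so they understate differences of low genes. Exons and lengths came from GENCODE release 29 (GRCh38), and symbols from a separate name list or, failing that, from GENCODE. Exon counts, overlaps and values per kb used the shortest complete transcript that holds the principal coding length of each member. GC content and the length trend used the longest principal transcript of each gene, or the longest of all where none was marked principal. Calls are at least 1.5-fold, and no test was possible. Shares carry exact binomial limits. Trends were removed as medians of 50 bins. Calculations were tested on simulated data with Python 3.11.15, numpy 2.4.6, pandas 2.3.3 and scipy 1.17.1, and plotted with matplotlib 3.10.9.

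The members and lists were chosen with earlier results of these data known. Genes named are MILIP, MDM2 and MYC; the 6 highest and 6 lowest members; P stalk and MDM2 or p53 linked members; the 4 highest and 4 lowest per kb; FAU and RACK1; the paralogs tested; the highest and lowest 2 of each list; and the 5 pseudogenes with the most reads. Some genes that the rule names are not reported here.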

Additional observations from a re-analysis of the deposited data

How the results depend on the processing

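No paired analysis was possible because there was a single library of each kind, so that none could be left out either. The family's median of −0.07 kept its sign and moved to −0.018 when libraries were scaled to the same total of listed reads (large subunit −0.017, small subunit −0.018), to −0.012 without the GC trend (large subunit −0.0068), to −0.13 without the length trend (large −0.13, small −0.14) and to −0.018 without the abundance trend (large −0.020, small −0.018). The count of members above 0 went from 22 to 36 without the GC trend, while the share over all genes tested went from 47.8% to 49.99%. Taking out the medians of bins fixes that share near 49.99% in advance. The count at least 1.5-fold lower, 1 at the settings of the report, was 2 with a pseudocount of 0.1, 0 at 2-fold, 2 without the GC trend, 3 without the length trend, 2 without the abundance trend, and 0 when the 16 members that overlap other genes, RPL18 among them, were left out, a choice made after seeing the data. The members added were RPL36A, RPL36 or both. Over all genes tested, 1869 of 13521 were lower at the settings of the report, 2100 with a pseudocount of 0.1 and 625 at 2-fold. Without the GC trend 1598 of 13398 were, without the length trend 1593 of 13398, and without the abundance trend 1723 of 13521. With overlapped members left out, 1868 of 13505 were lower. The count at least 1.5-fold higher stayed at 0 under each setting. Over all genes it lay between 471 of 13521 (at 2-fold) and 2014 of 27856 (no filter). RPL18 lay between −1.10 and −0.89. Adding pseudogene reads gave shares of 6.59% and 6.77%, and leaving out overlapped members 5.90% and 6.11%, with MILIP siRNA the larger each time. Of 161 values of 23 named members, 8 changed sign, in RPL23, RPLP1, RPLP2 and RPS27A. Causes were not tested beyond what each setting leaves out. Depth limits the 4 members with fewer than 1000 reads in the control library.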
